A study of Rattus norvegicus with 250 samples.

Results

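The genes described here are the 150 rows of the hippocampal count table whose expression rose most closely in step with the intergenic fraction of the library, the percentage left after the mRNA, intronic and ribosomal RNA (rRNA) fractions are subtracted from the whole. They were the 150 with the highest Pearson r between log2(CPM + 0.5) and that percentage, out of 13743 rows with a mean of at least 1 CPM (counts scaled to a library total that is the same for all libraries) and 32883 rows in the table. The r itself and every value derived from it were therefore used in choosing the genes, and they are given as descriptions without a test. Measures that move with the intergenic fraction are tied to that choice. Where the genes are tested for such a measure, the model holds the intergenic fraction constant unless stated otherwise, which need not remove the tie fully. The 150 genes vary together, so a count of them passing is not a count of independent results. The samples were adult F2 rats, 113 to 132 days old, from an intercross of lines selectively bred as High Responders (bHR) and Low Responders (bLR) to a new enclosure. Each rat gave 1 library of polyA RNA from pooled punches of dorsal and ventral hippocampus of a frozen brain, from the left side in 123 rats and the right in 122. The F2 rats mix the alleles of both lines over 12 families. Of 250 libraries, 245 carried no failed quality control label and were used, from 122 males and 123 females, of which 208 had any Pavlovian Conditioned Approach (PavCA) score and 37 had none. Total counts, in units of 1e6, ran from 17.9 to 31.5 with a median of 21.6. Each library came from a different rat.

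The intergenic fraction is the share of sequence that falls outside annotated genes, and its size depends on the annotation used as well as on the RNA. The RNA integrity number (RIN) scores how intact the ribosomal bands of a sample are, and RNA concentration reflects how much RNA an extraction yielded. The study treated the intergenic and rRNA percentages as covariates when it related gene expression to behavior of each library. In a bulk library, fewer cells of a type and less RNA per cell cannot be told apart.

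Across the 245 libraries the intergenic fraction ran from 9.91% to 17.3%, with a mean of 13.4% ± 1.70 (SD). Over this range the mean level of the 150 genes, as log2(CPM + 0.5), ran from 5.32 to 7.61, a 4.89-fold difference between the extreme libraries. It rose by 0.31 on the log2 scale for each percentage point, with a residual SD of 0.17, or 0.13 with a squared term, since the rise flattened at the highest fractions. The slope was 0.30 in the first sequencing batch, 0.31 in the second and 0.35 in the third. The 150 genes took 1.44% of all counts in the library where their share was smallest, 3.84% in the median library and 6.75% in the library where it was largest. The 5 libraries left out for quality control played no part in the choice. In them the mean level lay 0.13 above, 0.037 below, 0.050 below, 0.088 below and 0.17 above the line fitted to the other 245. These libraries were labelled for low RIN, for very many reads or for a sex label at odds with sex chromosome expression, and 144 to 150 of the 150 genes lay within 2 residual SDs of their own line in each, as did 89.0% to 99.5% of all rows.

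**Figure D1:**
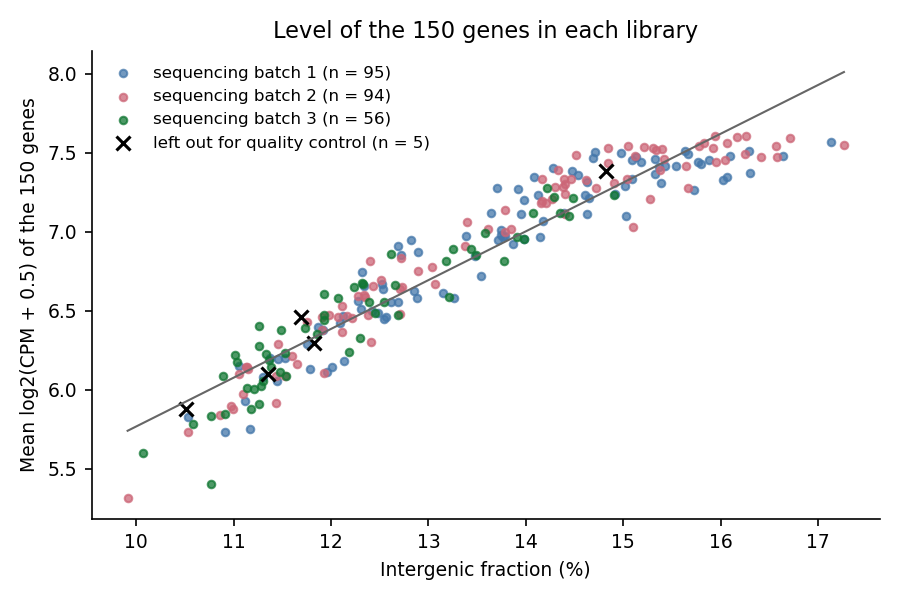
The mean log2(CPM + 0.5) of the 150 genes in each library is plotted against its intergenic fraction in percent, colored by sequencing batch, with the line fitted to the 245 libraries and the 5 libraries left out for quality control as crosses. The level rose from 5.32 to 7.61 as the fraction rose from 9.91% to 17.3%, and the 5 crosses lay within 0.17 of the line.

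The r values of the 150 genes ran from 0.931 to 0.976, with a median of 0.935. The 3 genes just inside the limit had an r of 0.9307, 0.9306 and 0.9305, and the 3 rows just outside had 0.9305, 0.9304 and 0.9301, so the limit cut through a continuous series. Over all 13743 rows the median r was 0.366 and 58.2% of rows had a positive r. A gene's own slope on the intergenic fraction ran from 0.19 to 0.40 per percentage point, with a median of 0.31, against a median of 0.051 over all rows. The ratio of a gene's highest to its lowest library was 2.89 to 10.6, with a median of 5.72, against a median of 3.92 over all rows. In each of the 3 sequencing batches and in each sex all 150 genes had a positive r, the lowest being 0.837. With dissection day and dissector removed the lowest was 0.867, and with the rRNA percentage removed it was 0.814.

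The genes were drawn from the well-covered part of the table. Their mean CPM ran from 10.1 to 4638 with a median of 103, whereas the median of all rows was 24.5. When all rows were divided into 10 equal groups by mean CPM, the lowest 3 groups held none of the 150 genes and the highest 2 held 46 and 53, the smaller count in the highest group. CPM was not divided by gene length, so these values are shares of reads and do not rank transcripts by abundance. Since r is held down by counting noise in genes with few reads, the absence of low-count genes follows in part from the rule.

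**Figure D2:**
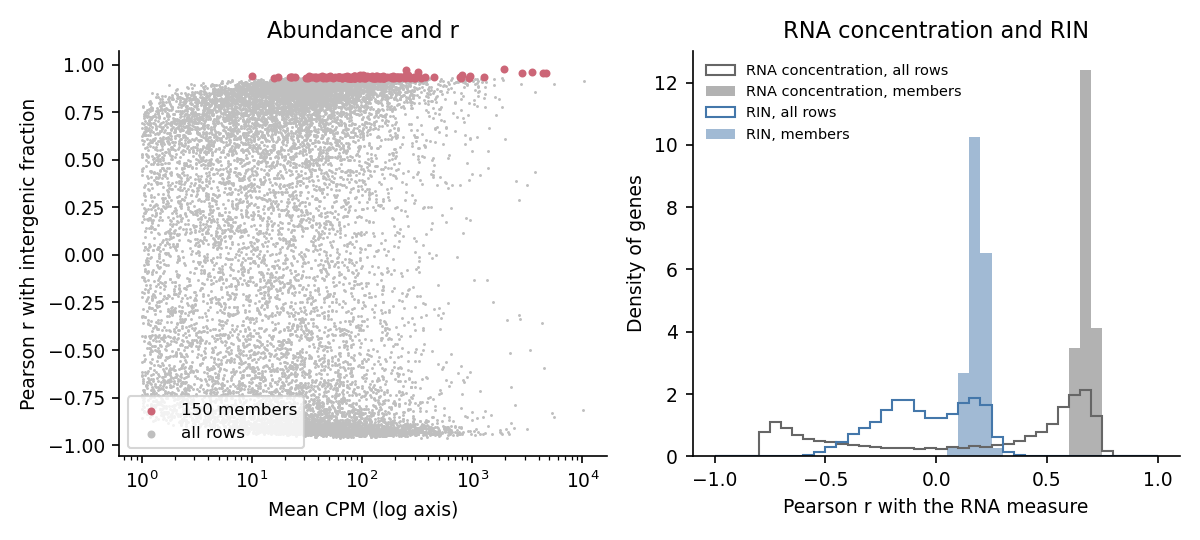
Left, Pearson r with the intergenic fraction against mean CPM on a log axis, with all 13743 rows in gray and the 150 genes in red. Right, the density of genes by their r with RNA concentration and with RIN, with outlines for all rows and filled bars for the 150 genes. The 150 genes began at a mean of 10.1 CPM, their r with RNA concentration ran from 0.613 to 0.737, and their r with RIN ran from 0.085 to 0.259.

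Only 24 of the 150 genes were paired with a symbol in the annotation used, whose full gene sheets are ordered by position and hold 1871 of the 13743 rows, so the named genes are not a sample of all 150. Grouped by their known roles, without any test of those roles, several act at synapses. Grik5, a kainate receptor subunit, had 26.1 CPM in its lowest library, 103 in the median library and 214 in its highest. Nrxn2, which encodes the presynaptic adhesion molecule neurexin 2, ran from 58.3 CPM through a median of 229 to 456. Both genes had their lowest or near-lowest value in the library with the lowest intergenic fraction, where they stood at 26.1 and 64.3 CPM, and stood at 188 and 418 CPM in the library with the highest. Ctnnd2, which encodes delta-catenin of neuronal junctions, had a median of 113 CPM, Sez6l2, a neuronal membrane protein, 279 CPM, and Lrfn4, a synaptic adhesion protein, 17.1 CPM.

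Others handle RNA. Sf1, which recognizes the branch point of introns, ran from 29.4 CPM through a median of 93.6 to 162. Eif3a, the largest subunit of translation initiation factor 3, ran from 69.2 CPM through 228 to 400. Rbfox3, the neuronal splicing factor known as the antigen NeuN, ran from 36.8 CPM through 126 to 222. Sart1 and Scaf1, both linked to splicing, had medians of 60.8 and 142 CPM. Rbbp6, which takes part in the processing of transcript ends, had the lowest slope of the 24 named genes, 0.19 ± 0.0047 (SE) per percentage point, and ran from 25.8 CPM through 53.6 to 79.5. Samd4b, a translational repressor, had a median of 30.0 CPM.

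Other named genes act in chromatin, transcription and signaling. Smarca2, an ATPase of SWI/SNF chromatin remodeling complexes, ran from 72.5 CPM through a median of 140 to 233. Cic, the transcriptional repressor capicua, ran from 21.3 CPM through 66.3 to 135. Rnf40, a histone H2B ubiquitin ligase, had a median of 42.7 CPM, and Phrf1, a PHD and RING finger protein, 43.2 CPM. Among signaling genes, Lmtk3, a kinase expressed in neurons, had the highest r of the named genes at 0.944. It ran from 19.6 CPM through a median of 91.3 to 208. Its ratio of highest to lowest library was the largest of all 150, at 10.6. Its slope was 0.39 ± 0.0087 (SE) per percentage point. Dact3, an inhibitor of Wnt signaling, had a median of 122 CPM, the kinase Taok2 122 CPM, and the ubiquitin ligases Neurl1 and Trim8 141 and 82.7 CPM. Tacc2, a centrosome-associated protein, and Tlcd3b, a protein of lipid metabolism, had medians of 75.5 and 30.9 CPM. In RefSeq promoter windows of 300 bases (assembly GRCr8), 21 of the 23 members in the full sheets had an entry and a median GC content of 62.7%, against 60.3% in the 1496 of 1871 listed rows with an entry, as a description only.

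The genes moved together far beyond pairs drawn from the whole table. As measured, this follows from their common relation to the intergenic fraction. The median r between 2 of the 150 genes was 0.972 as measured, 0.775 once the intergenic fraction was removed and 0.706 once all covariates of the study's model were removed, whereas over 1058 rows spaced evenly through the ranked table the medians were 0.118, 0.0999 and 0.0559. In the 150 rows with the most negative r with the intergenic fraction, the same medians were close, at 0.973, 0.725 and 0.661. What remained after removal was not uniform among the 150 members. For 142 of these members, the median r with the other members given the intergenic fraction was 0.605 to 0.853. For the remaining 8, a set noticed after the values were seen, it was -0.130 to 0.326, and no gene lay between.

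These 8 genes held ranks 1 to 7 and 9 by r, and none was paired with a symbol. ENSRNOG00000029971, the gene with the highest r (0.976), had 618 CPM in its lowest library, 1807 in the median library and 4077 in its highest. ENSRNOG00000031979, the most highly counted of the 150, had 2014 CPM, 4491 CPM and 8234 CPM. Both were at the low end in the library with the lowest intergenic fraction and at their highest in the library with the highest. The 8 genes took 0.773% of all counts in the lowest library, 1.79% in the median library and 3.49% in the highest, close to the 0.672%, 2.05% and 3.50% of the other 142. Among themselves they formed a set of 5 and a set of 3. Given the intergenic fraction, the median r was 0.810 within the 5, 0.806 within the 3, 0.500 between both sets and 0.0734 between the 8 and the other 142. The r with the rRNA percentage given the intergenic fraction was -0.688 to -0.276 in the 142 genes, -0.351 to -0.123 in the 5 and -0.054 to 0.00057 in the 3. The r with RNA concentration on the same basis was 0.208 to 0.356 in the 5 and -0.0739 to -0.0219 in the 3.

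Lists of other genes were read beside the 150 as a description. Of the 34 cell type markers listed, 8 were paired with an identifier. Rbfox3 was itself a member. The neuronal glutamate transporter Slc17a7 had an r of 0.893 with the intergenic fraction, the astrocyte genes Aqp4, Gfap and Slc1a3 had 0.811, 0.633 and -0.825, the myelin gene Mag 0.405, the thalamic marker Tcf7l2 0.211 and the choroid plexus marker Folr1 -0.425. Slc17a7 averaged 1573 CPM, from 446 to 2469, and Rbfox3 was above 36 CPM in every library, while no marker of the hippocampal fields, microglia or endothelium was paired. Folr1 had 0.211 CPM in its lowest library and 97.5 in its highest. The part of cell composition in the members' levels was not tested. None of 15 rows with symbols of cytosolic ribosomal proteins was a member, and all 15 had a negative r, from -0.938 to -0.826. The -0.826 belonged to an entry of Rpl13a with a mean of 2.71 CPM, and another entry of that gene had -0.917. None of 19 nuclear genes of the respiratory chain was a member, and their median r was -0.907, with 2 positive. No mitochondrially encoded gene and none of 7 long noncoding RNAs listed was paired with an identifier. Whether the members without a symbol include such genes was therefore not seen. None of 61 rows with zinc finger symbols was a member, with a median r of 0.572. None of 7 genes with symbols starting Srsf, Hnrn or Rbm, which act in RNA splicing and binding, was a member. Their median r was 0.579, with 4 positive. Members that handle RNA, such as Sf1 and Rbfox3, lie outside these prefixes. Over all 1871 listed rows the median r was 0.273 and only 23 were members. The absence of members from lists this short is therefore near the overall share. The 150 rows with the most negative r ran from -0.962 to -0.944, and their mean level had an r of -0.981 with that of the 150 members.

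The next question was which measures of the RNA the intergenic fraction moved with, across 12 measures and 6 groupings of the 245 rats (two-sided permutation tests with 100000 resamples, Benjamini-Hochberg adjustment over 30 p-values, smallest possible p of 1e-05). RNA concentration, in the labels' unstated unit, ran from 8.09 through a median of 144 to 421. It rose with the intergenic fraction, with an r of 0.666 and a rho of 0.689 (permutation adjusted p = 3.75e-05 for both). The r was 0.666 without the 2 rats farthest from the median, and 0.562, 0.772 and 0.722 within the 3 batches. RIN ran from 8.4 through a median of 9 to 9.7, and the relation was weak, with an r of 0.185 (permutation adjusted p = 0.00905) and a rho of 0.289 (permutation adjusted p = 3.75e-05). It did not hold in the same direction within batches, where r was 0.234, 0.598 and -0.281. The median coefficient of variation of coverage, a measure of how unevenly reads lie along transcripts, fell as the intergenic fraction rose, with an r of -0.766 and a rho of -0.798 (permutation adjusted p = 3.75e-05 for both) and within-batch values of -0.752, -0.798 and -0.739. DV200, the percentage of RNA fragments above a length limit, had an r of 0.121 (permutation adjusted p = 0.128). Total counts had an r of -0.193 (permutation adjusted p = 0.00672), but -0.129, -0.0077 and -0.0659 within batches. The rRNA percentage, which is part of the subtraction and so was not tested, had an r of -0.777.

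The 150 genes carried the same relations by construction. Their r with RNA concentration ran from 0.613 to 0.737 (median 0.681), all positive, whereas over all rows the median was 0.360 and 61.4% were positive. Their r with RIN ran from 0.0852 to 0.259 (median 0.189), all positive, against a median of -0.0574 over all rows. Their r with the rRNA percentage ran from -0.881 to -0.749, and that with the coverage measure from -0.821 to -0.723. Their r with LocoScore, the number of beam breaks in a new enclosure, ran from -0.112 to -0.0523, all negative, while over all rows the median was -0.0432.

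The intergenic fraction and the level of the 150 genes differed with who dissected the tissue and when. Rats dissected by dissector One had an intergenic fraction of 14.5% ± 1.15 (SD, n = 80) and those by the other dissector 12.8% ± 1.63 (SD, n = 165), a difference of 1.75 percentage points (permutation adjusted p = 3.75e-05). The mean level of the 150 genes was 7.22 ± 0.32 (SD) and 6.61 ± 0.53 (SD) in these rats. Eif3a had 144 CPM in the lowest library of dissector One, 304 in the median and 400 in the highest, and 69.2, 175 and 387 CPM in those of the other dissector. The ranges overlapped, with the median of dissector One well above. Within batches the intergenic difference, the other dissector minus One, was -0.424, -2.61 and -2.11 percentage points, and it did not pass the test in the first batch (permutation p = 0.275, 22 and 73 rats). On days 1, 2 and 3, mainly in the first batch, dissector One took no part, and the intergenic means were 15.4%, 14.1% and 14.1%. Dissector and day therefore cannot be fully told apart in the first batch. On all 7 days with both dissectors, dissector One had the higher mean, by 1.36 to 2.98 percentage points of intergenic fraction and by 0.48 to 0.98 in the log2 level of the 150 genes. RNA concentration was 230 ± 78.3 (SD) for dissector One and 121 ± 69.0 (SD) for the other. The part of RNA yield in the difference between dissectors was not tested.

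The 10 dissection days held 19.1% of the variance in intergenic fraction (permutation adjusted p = 3.75e-05) and 14.6% of that in the level of the 150 genes. The intergenic fraction was highest on day 1, at 15.4% ± 1.43 (SD, n = 11), and lowest on day 11, at 12.1% ± 1.29 (SD, n = 30). The level of the 150 genes on those days was 7.35 ± 0.40 (SD) and 6.43 ± 0.47 (SD). On the other 8 days its mean lay between 6.62 and 6.98, with SDs of 0.43 to 0.62, and the values of single rats overlapped between days. This mean level was not itself tested by day. Within batches the days held 31.4%, 1.74% and 8.01% of the variance in intergenic fraction, and the second and the third values did not pass the test (permutation p = 0.675 and p = 0.217). The 3 sequencing batches held 12.6% of it (permutation adjusted p = 3.75e-05), with means of 13.7% ± 1.57, 13.7% ± 1.80 and 12.3% ± 1.21 (SD, n = 95, 94 and 56). The level of the 150 genes was 6.91 ± 0.50, 6.91 ± 0.58 and 6.46 ± 0.45 (SD) in these batches. Days were nearly nested in batches, so that their parts cannot be told apart.

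**Figure D3:**
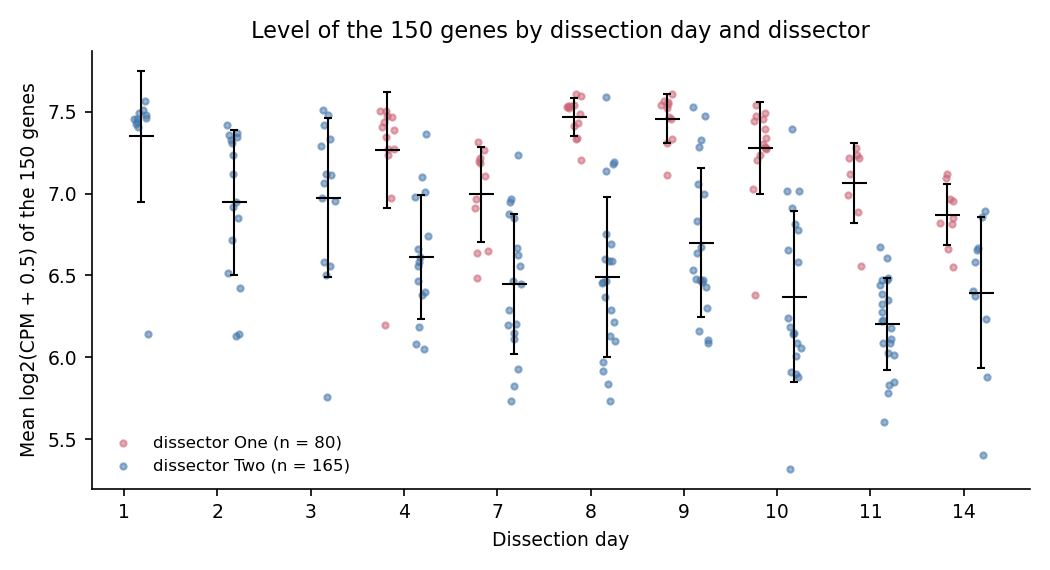
The mean log2(CPM + 0.5) of the 150 genes in each library is plotted by dissection day, with dissector One in red, the other dissector in blue, and black marks and bars for the mean and SD of each dissector on that day. Over both dissectors the mean was highest on day 1, at 7.35 ± 0.40 (SD), and lowest on day 11, at 6.43 ± 0.47 (SD), and dissector One had the higher mean on all 7 days with both.

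No measure of behavior passed the test against the intergenic fraction, whose r was -0.0656 with LocoScore, 0.000753 with distance traveled in the elevated plus maze (EPM), 0.0127 with time immobile, -0.0328 with the share of time spent in the open arms and 0.00362 with the PavCA Index, the score of Pavlovian conditioning that is low in goal-trackers and high in sign-trackers. The permutation adjusted p was 0.459 for LocoScore and 0.831 to 0.991 for the others. Males and females differed by 0.0916 percentage points (permutation adjusted p = 0.88) and sides by 0.118 (permutation adjusted p = 0.831). Rats with PavCA experience had 13.5% ± 1.75 (SD, n = 208) and untrained rats 12.7% ± 1.24 (SD, n = 37; permutation adjusted p = 0.0395). This difference, trained minus untrained, was 2.03, -0.306 and -1.07 percentage points within the 3 batches, where only 4, 3 and 30 rats were untrained.

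The study's model, fitted to 19448 genes with limma-voom, holds the intergenic and rRNA percentages constant beside sex, dissector, PavCA experience and sequencing batch. RIN was added to it first. With the intergenic term, 144 of the 150 genes passed a false discovery rate (FDR) of 0.10 for RIN, 143 of them rising and 1 falling, with a median slope of 0.28 per RIN unit and a median SE of 0.052. Of all genes tested, 47.3% passed and 28.9% passed as rising, and of the 9609 genes with a mean CPM no lower than that of any member, 66.5%. Of the genes with a symbol, the smallest p-values belonged to Phrf1 with a slope of 0.40 ± 0.052 (SE, adjusted p = 6.81e-11), Samd4b with 0.48 ± 0.070 (adjusted p = 2.03e-09) and Eif3a with 0.36 ± 0.054 (adjusted p = 4.98e-09). Rbfox3 had 0.11 ± 0.050 (adjusted p = 0.0648). With all 250 libraries, which adds 2 of low RIN, 55 of the 150 passed (all genes: 28.8%). The pooled count was not met in each batch. Fitted within batches, an alternative added after the data were seen, the slope passed in 1, 0 and 121 genes (all genes: 4.23%, 0% and 20.1%), with medians of 0.022, 0.025 and 0.27. The 1 gene of the first batch fell, and 119 of the 121 in the third rose. Of the 8 genes that stood apart, 3 rose and 1 fell in the pooled fit.

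For RNA concentration only 8 of the 150 genes passed with the intergenic term, against 16.6% of all genes and 25.3% of the 9609, and the median slope was -0.000033 per 10 units. Tacc2 had the smallest p, with 0.0076 ± 0.0018 (SE, adjusted p = 0.00229). Without the intergenic term 149 passed, all rising, against 19.4% of all genes, with a median slope of 0.014. Those 149 follow from the choice of genes, because the term removed is the one used to choose them. Within batches 0, 20 and 18 genes passed (all genes: 5.19%, 17.1% and 17.2%), and of the 18 in the third batch all had a negative slope.

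Dissector remained associated with the level of many of the 150 genes after the intergenic term. The value was lower with the other dissector than with dissector One in 98 of them (all genes: 9.71% lower) and higher in 0, and 14.9% of all genes and 21.6% of the 9609 passed in either direction. The median difference, the other dissector minus One, was -0.075 with a median SE of 0.028, and -0.22 without the intergenic term, when all 150 were called lower (all genes: 26.5%). Those calls follow from the choice of genes, since the dissectors differ in the term left out. Of the genes with a symbol, the smallest p-values belonged to Neurl1 with -0.17 ± 0.036 (SE, adjusted p = 0.000273), Tlcd3b with -0.11 ± 0.025 (adjusted p = 0.00178) and Smarca2 with -0.089 ± 0.022 (adjusted p = 0.00268). None of the 8 genes that stood apart passed. Within batches 140, 0 and 0 genes passed (all genes: 19.7%, 0.201% and 3.18%), and the first batch was the one where the dissectors' intergenic fractions differed least. In that batch dissector and dissection day cannot be fully told apart, because dissector One took no part on days 1, 2 and 3. The difference between batches in these fits was not tested.

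Sequencing batch passed in 139 of the 150 genes (all genes: 57.4%; the 9609: 78.5%), dissection day in 136 (51.1%; 75.9%) and family in 142 (56.3%; 77.5%). Eif3a had the smallest batch p of the named genes, with 256, 257 and 173 CPM in the median library of the 3 batches (adjusted p = 2.30e-15). For dissection day the smallest adjusted p of the genes with a symbol was 5.06e-05 in Neurl1, followed by 0.000207 in Cic. For family it was 1.70e-05 in Phrf1, followed by 3.92e-05 in Cic. Without the intergenic and rRNA terms only 10 of the 150 genes passed for family (all genes: 20.9%).

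The direction of the sex difference depended on the covariates. The study killed the males in the first week and the females in the second, so sex and week of death cannot be told apart. With the study's model, 20 of the 150 genes passed, all lower in females (all genes: 4.84% lower). In either direction 8.76% of all genes and 11.1% of the 9609 passed. Rbfox3 led them, with 47.3 CPM in the lowest male library, 132 in the median and 222 in the highest, and 36.8, 122 and 219 CPM in females. These ranges nearly coincided. Its difference, female minus male, was -0.10 ± 0.020 (SE, adjusted p = 0.000225). Without the intergenic term all 150 differences were positive (all genes: 50.0%), 28 passed, all higher in females (all genes: 7.86% higher), and that of Rbfox3 was 0.0019 ± 0.036 (SE, adjusted p = 0.976). Without both RNA terms 132 were positive (all genes: 51.4%) and 0 passed by limma-voom (all genes: 1.95%), with 5 below an unadjusted p of 0.05 (all genes: 10.0%). Within batches 1, 85 and 0 genes passed (all genes: 2.81%, 7.05% and 0.264%), the 1 higher and the 85 lower in females, and with all 250 libraries 36 passed, all lower in females (all genes: 5.02% lower).

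PavCA experience passed in 2 genes, both among the 8 that stood apart and both lower in trained rats, by -0.088 ± 0.025 and -0.068 ± 0.022 (SE). Of all genes 3.8% passed as lower and 9.07% in either direction, and of the 9609 13.8% in either direction. Hippocampal side passed in 0 by limma-voom, with 0 below an unadjusted p of 0.05 (all genes: 0% and 5.39%).

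**Figure D4:**
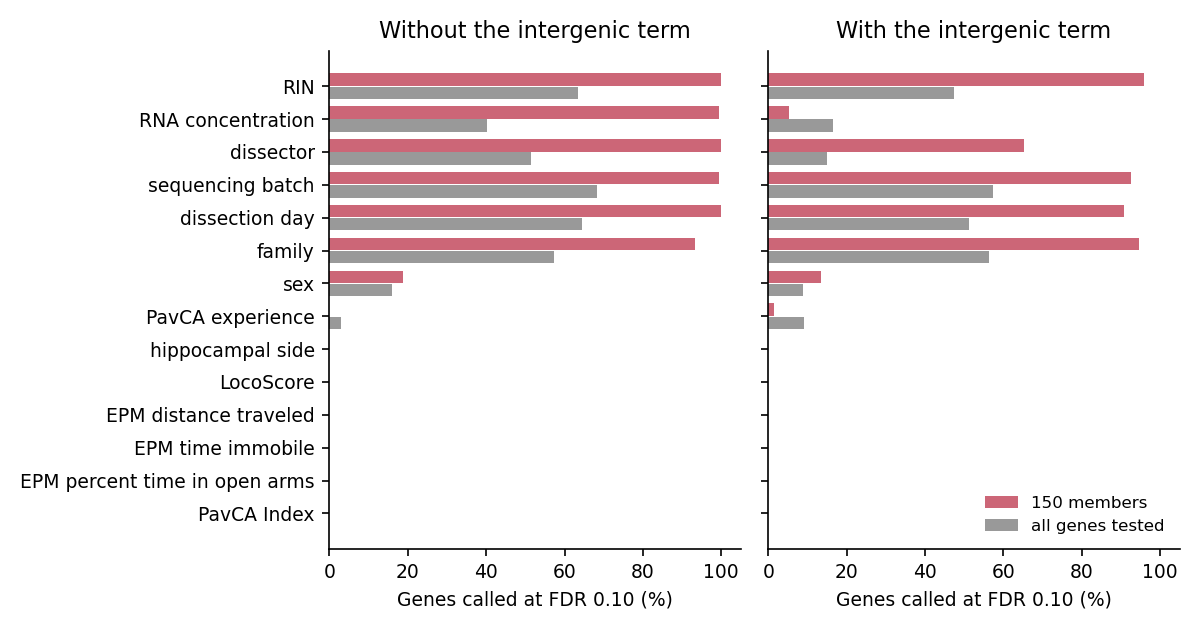
Bars give the percentage of genes passing an FDR of 0.10 for each term of the model, for the 150 genes in red and all 19448 genes tested in gray, without the intergenic term on the left and with it on the right. With the term, RNA concentration fell from 149 to 8 of the 150 genes and dissector from 150 to 98, while no behavior passed in any of the 150 in either panel.

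Behavior slopes were fitted with and without the intergenic term. For LocoScore, 0 of the 150 genes passed with limma-voom (all genes: 0.0103%), 0 with edgeR's quasi-likelihood test (0.00514%) and 0 with DESeq2's Wald test (0.0103%), and 0 were below an unadjusted p of 0.05 (5.23%). The median slope was 0.00095 per 100 beam breaks with a median SE of 0.0037, and 104 were positive. The 95% confidence intervals of all 150 slopes lay between -0.0107 and 0.0145 per 100 beam breaks, while LocoScore ran from 40 through a median of 475 to 1461. Without the intergenic term the SE of a member was 1.76 times as large in the median, 1.62 to 3.07 times over the 150, against a median of 1.07 over all 19448 genes. As the genes were chosen for their relation to this term, the ratio is a description. The slope itself moved by -0.00096 in the median when the term was left out, which was -0.267 of the SE in the study's model in the median and -0.529 to -0.118 over the 150. Of the genes with a symbol, Neurl1 had the smallest p, with a slope of 0.0054 ± 0.0046 (SE, adjusted p = 0.998). Lmtk3 had -0.0017 ± 0.0045 (adjusted p = 0.998) and Rbfox3 0.0029 ± 0.0033 (adjusted p = 0.998) with the term in the model.

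The sign of the slopes changed with the covariates. For LocoScore 104 of the 150 slopes were positive with both RNA terms, 72 without the intergenic term and 0 without either (all genes: 51.2%, 50.9% and 48.7%), with a median of -0.0081 in the last. Adding dissection day left 26 positive, and adding family gave 128 (all genes: 50.5% and 55.2%). Since the 150 genes vary together, they do not count as 150 independent slopes. For EPM percent time in the open arms 99, 9 and 3 were positive under the same 3 models (all genes: 47.3%, 44.5% and 48.1%). For EPM time immobile the numbers were 22, 43 and 147 (all genes: 47.7%, 45.3% and 49.0%). For EPM distance traveled they were 22, 81 and 4 (all genes: 45.3%, 48.7% and 48.3%). None of these slopes passed in any of the 3 models.

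**Figure D5:**
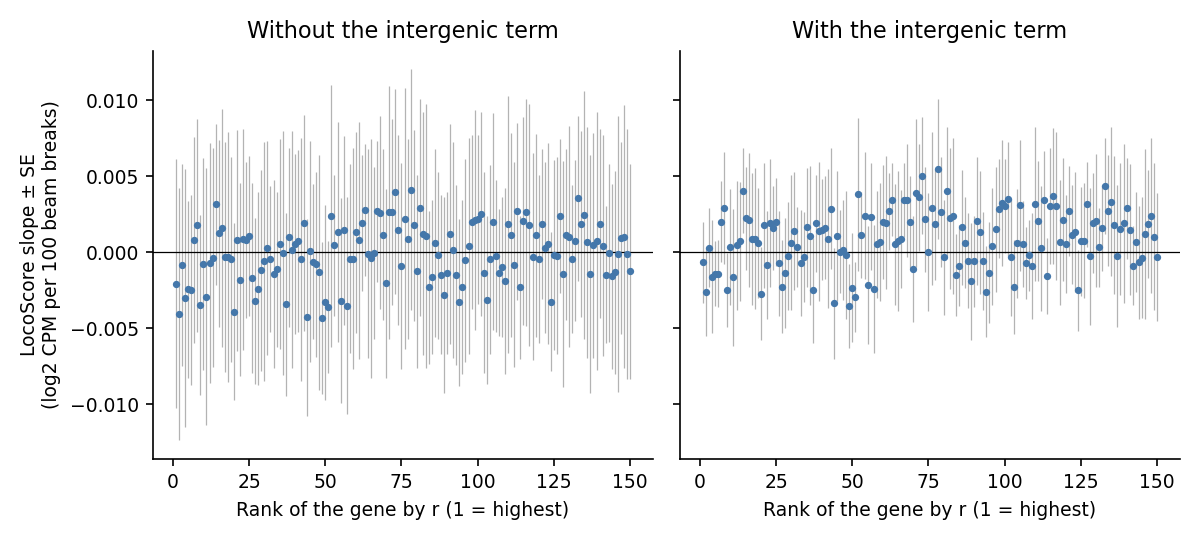
The LocoScore slope of each of the 150 genes, in log2 CPM per 100 beam breaks with its SE, is plotted by rank of r, without the intergenic term on the left and with it on the right. The slopes stayed near 0 in both panels, while the median SE fell from 0.0065 to 0.0037.

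For EPM distance traveled (244 rats, without 1 rat above 5000 cm), EPM time immobile and EPM percent time in the open arms, 0 of the 150 genes passed with limma-voom and 0 with edgeR, and 2, 1 and 0 were below an unadjusted p of 0.05 (all genes: 3.74%, 4.27% and 3.90%), while 0% of all genes passed the FDR for each. The 95% confidence intervals of the 150 slopes lay between -0.0114 and 0.0073 per 100 cm, between -0.0222 and 0.0117 per 10 s, and between -0.0381 and 0.0435 per 10 percentage points. Trim8 had the smallest p for open arms, with a slope of 0.016 ± 0.0095 (SE, adjusted p = 1).

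The PavCA Index was fitted in 205 trained rats. Without the intergenic term all 150 slopes were positive (all genes: 51.7%) with a median of 0.070 per index unit, and 64 were below an unadjusted p of 0.05, against 7.36% of all genes, although 0 passed the FDR with limma-voom (all genes: 0.00514%; lowest adjusted p = 0.653). With the term the median fell to 0.017, 134 were positive (all genes: 55.1%), 3 were below an unadjusted p of 0.05 (all genes: 3.21%) and 0 passed the FDR (all genes: 0.00514%), as with edgeR. Without both RNA terms only 15 were positive (all genes: 48.7%), with a median of -0.023. Cic had a slope of 0.052 ± 0.030 (SE, adjusted p = 0.999) and Lmtk3 0.041 ± 0.025 (adjusted p = 0.999) in the study's model.

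The slope on LocoScore was next compared between the sexes, which were tested on separate days and killed in different weeks. Sex cannot be told apart from these. The interaction, female slope minus male slope, was positive in 143 of the 150 genes (all genes: 52.2%) with a median of 0.015 per 100 beam breaks, and 81 were below an unadjusted p of 0.05, against 18.5% of all genes and 28.1% of the 9609. None passed the FDR with limma-voom (all genes: 0.329%; lowest adjusted p = 0.118), but with a minimum of 1 CPM in 25% of rats 11 of the 150 passed, all positive (all genes: 1.93% in either direction). In males alone (n = 122) 11 slopes were positive (all genes: 47.1%), with a median of -0.0073, and in females alone (n = 123) 136 were positive (all genes: 51.3%), with a median of 0.0053, and 0 passed in either sex. Phrf1 had an interaction of 0.025 ± 0.0075 (SE, adjusted p = 0.121), Samd4b 0.031 ± 0.0097 (adjusted p = 0.13) and Taok2 0.019 ± 0.0064 (adjusted p = 0.136). Without the intergenic term 0 of the 150 were below an unadjusted p of 0.05 (all genes: 5.92%).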

How the data were processed

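The authors aligned reads with STAR 2.7.3a to the rat genome build Rnor6 and counted them per Ensembl 103 gene on the reverse strand with Subread 2.0.0, and the deposited table holds raw counts for 32883 genes, of which 6706 had no read. RNA and behavior measures, including the percent values for rRNA, intronic and mRNA fractions, came from the labels, with RNA concentration in an unstated unit. The labelled intergenic value was damaged, so it was recomputed by subtraction. Gene symbols came from the study's supplementary gene sheets, and 126 of the 150 genes were not paired. The genes and lists were chosen with earlier results of these data known.

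CPM used total counts. Of the genes, 19448 had 1 or more reads in 25% of the rats and were fitted with limma 3.58.1 (voom, TMM from edgeR 4.0.16) on sex, rRNA and intergenic percentages, dissector, PavCA experience and sequencing batch (3, from gaps over 100 in the library numbers), with Benjamini-Hochberg FDR 0.10. The PavCA Index model left out PavCA experience. DESeq2 1.42.0 and edgeR's quasi-likelihood test were alternatives. Adjusted p-values for genes are from limma. Correlations and group differences over rats used permutation tests in Python 3.11.15. Scripts were tested on simulated data. Named genes were the 12 with the highest r, the 5 with the highest mean CPM, the rows next to the limit, the 3 with the smallest p per term and up to 25 with a symbol. Those without a symbol are described by counts. A gene with a symbol is not reported here.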

Additional observations from a re-analysis of the deposited data

Results flagged for a closer look

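Interactions of the intergenic fraction with sequencing batch or sex were tested in 30 models by permuting residuals, a family added after the data were seen, and 7 had an adjusted permutation p below 0.05. Slopes are in percentage points of intergenic fraction. Per RIN unit the slope was 1.89, 6.53 and -1.2 in the 3 sequencing batches (permutation adjusted p = 0.00075). The difference between dissectors, the other minus dissector One, was -0.424, -2.61 and -2.11 in these batches (permutation adjusted p = 0.00075). It was -2.36 in females and -1.17 in males (permutation adjusted p = 0.0183). In the first batch dissector is partly confounded with dissection day, since dissector One took no part on days 1, 2 and 3. The difference with PavCA experience, trained minus untrained, was 2.03, -0.306 and -1.07 by batch (permutation adjusted p = 0.0135). Per unit of the median coefficient of variation of coverage the slope was -77.9, -80.1 and -46.4 by batch (permutation adjusted p = 0.008), and -84.8 in females and -62.7 in males (permutation adjusted p = 0.0245). Per labelled unit of RNA concentration it was 0.0152 in females and 0.0103 in males (permutation adjusted p = 0.0328). The causes of these differences were not tested.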

How the results depend on the processing

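Of 268 alternatives, 81 concerned the slopes of the 5 behaviors themselves, and 0 of the 150 genes were called in any of these. With TMM library sizes, 99 of the 150 genes were chosen again. Spearman rho kept 107, the mean r within batches 105, and the partial r given dissection day and dissector 119. The partial r given the rRNA percentage kept 138, and the remaining settings 147 to 150. Counts of the 150 called moved as follows, and the causes were not tested. Without the intergenic term RNA concentration gave 149, dissector 150 and PavCA experience 0, and without both RNA terms these gave 150, 150 and 0, sex 0 and family 10. A minimum of 1 CPM gave 14 for RNA concentration, 4 for PavCA experience and 11 for sex by LocoScore (all genes: 23.3%, 12.6% and 1.93%), and DESeq2 size factors gave 6 for PavCA experience (10.0%). All 250 libraries gave 55 for RIN, 36 for sex and 9 for PavCA experience (28.8%, 10.3% and 12.3%). Within batches, chosen after seeing the data, RIN gave 1 and 0 in the first and second, RNA concentration 0, 20 and 18, dissector 0 and 0 in the second and the third, and sex 1, 85 and 0.

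For the intergenic fraction, r changed sign within batches for RIN (-0.281 in the third), DV200 (-0.00401 in the second), reads passing filter (0.001 and 0.157 in the first and second), age (-0.107 in the third), EPM distance (-0.0364 and -0.0772 in the second and the third), time immobile (-0.0549 in the first), open arms (0.0929 in the third) and PavCA Index (-0.174 in the third). It also changed sign for EPM distance in males (-0.0887), for the PavCA Index in females (-0.126) and with all libraries (-0.000753), and without the 2 farthest rats for EPM distance (-0.00501), time immobile (-0.00154) and PavCA Index (-0.0186). Total counts lost the call within batches (-0.129, -0.0077 and -0.0659) and in males (-0.154), as did RIN in females (0.14), while DV200 and age gained it in females (0.207 and 0.198). Group differences changed sign in the third batch for sex (0.121) and side (0.0652), in females for side (0.000991), and for PavCA experience in the second and the third batches (-0.306 and -1.07). The call was lost for dissector in the first batch (-0.424), for PavCA experience in males (0.683) and females (0.78), and for dissection day in the second and the third batches (1.74% and 8.01% of variance). No paired analysis was possible because replicate numbers were given in accession order and pair no rats. How far depth limited the choice of genes was not tested, and the lowest mean CPM among them was 10.1.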
